A study of Mus musculus with 12 samples.

Results

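The oligoadenylate synthetase family was followed through 12 RNA-seq libraries of a mouse tumour cell line. Its 8 members, Oas1a, Oas1b, Oas1c, Oas1g, Oas2, Oas3, Oasl1 and Oasl2, were taken by their gene names from a table of 29549 genes, and their counts by gene identifier from a table of 55401 genes. The other copies of the Oas1 cluster are described beside them. Levels were measured in 4 groups of 3 libraries. The group sgRnf19a_IR carried a guide against Rnf19a and was 24 h into a treatment that the labels call IR and do not spell out. The group control_IR had the control guide and the same treatment. The groups sgRnf19a and control had the same guides and no IR. All are labelled as B16F10 cells, a transplantable mouse melanoma line. Those with the Rnf19a guide are labelled as deficient in this RING-between-RING ubiquitin ligase. How many guides or clones stand behind a group is not given in the sources used here. Nor is it given whether replicate libraries were grown apart, so the spread that p-values rest on may be technical.

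Oligoadenylate synthetases bind double-stranded RNA, a sign of virus infection, and then join ATP into short oligoadenylates with an unusual linkage. The oligoadenylates act as an alarm signal inside the cell and are part of its defence against viruses. The genes are classic interferon-stimulated genes, switched on by the factor ISGF3 at the interferon-stimulated response element of their promoters.

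All 8 members were higher in cells with the Rnf19a guide than with the control guide, both with IR and without it. Of all genes 21.0% were called higher with the guide under IR and 3.02% without IR. With IR the excess ran from 3.09-fold for Oas3 to 23.0-fold for Oas1g, and without it from 2.32-fold for Oas1c to 13.6-fold for Oasl2 and 13.7-fold for Oas1a and Oas1g. IR raised 7 of the 8 in each genotype, up to 10.8-fold in sgRnf19a cells and 9.54-fold in control cells, both for Oasl1, and Oas2 did not pass in either. Of all genes 18.0% were called higher with IR in sgRnf19a cells and 22.2% in control cells. In edgeR's fit 0 of the 8 differed between the genotypes in the IR response itself at an adjusted p under 0.05, while DESeq2 called Oas1c and Oas1g and limma on log2(FPKM + 1) called Oas1c. Of all genes edgeR called only 0.544% higher and 0.137% lower there, so 0 of 8 sets no contrast with them. Bulk RNA cannot tell more responding cells from more RNA per cell.

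The libraries held 34.3 to 45.6 M counts in the 6 with IR and 62.7 to 71.3 M in the 6 without it. The IR-treated libraries stood apart in the kinds of RNA they held. Ribosomal RNA genes took 11.3 to 22.1% of their counts, against 0.223 to 0.696% without IR. The median log2 CPM of genes with transcripts over 6 kb minus that of genes under 1 kb was lower in every library with IR. It was -0.14, -0.96 and 0.73 in sgRnf19a_IR replicates 1, 3 and 4. In control_IR replicates 1, 4 and 5 it was -1.43, -1.18 and -1.31. Without IR it was 2.20, 2.18 and 2.09 in sgRnf19a and 1.70, 2.01 and 1.30 in control. Libraries with the guide thus lay above those without it in both states. Apart from the correction below, the part of this in the guide results was not tested. With ribosomal RNA genes left out, 7, 7, 8 and 8 members were called higher for IR in sgRnf19a cells, IR in control cells, the guide with IR and the guide without it, as many as with them. A correction of each library for transcript length and GC content gave the same 4 numbers. Neither step can tell a difference in RNA make-up from IR itself, since that difference runs with the treatment. Rnf19a itself was at 18.1, 11.6 and 37.7 CPM in sgRnf19a_IR replicates 1, 3 and 4, at 4.37, 8.06 and 5.39 CPM in control_IR replicates 1, 4 and 5, at 27.4, 25.6 and 22.6 CPM in the sgRnf19a libraries and at 33.5, 29.4 and 21.5 CPM in the control libraries, so its mRNA level does not check the guide labels. Of 8 melanocyte markers 4 had no count in any library (Slc45a2, Mlana, Tyrp1 and Tyr), and the 8 together came to 2.29 to 16.4 CPM. These markers do not bear out the label of a melanoma line. The summed level of 5 epithelial markers was the highest of these sums, at 394 to 684 CPM in sgRnf19a_IR, 1043 to 1216 CPM in control_IR, 559 to 572 CPM in sgRnf19a and 658 to 830 CPM in control, nearly all of it the keratins Krt8, Krt18 and Krt19. The summed level of 5 fibroblast markers was 99.9 to 202 CPM in sgRnf19a_IR and 396 to 426 CPM in control_IR, and 57.2 to 144 CPM in sgRnf19a and 470 to 503 CPM in control. Under IR Col3a1 alone of the 5 had the lower mean with the guide, at 52.1 CPM in sgRnf19a_IR and 347 CPM in control_IR, and the other 4 had the higher one. The summed level of 7 immune cell markers was 11.6 to 37.6 CPM in sgRnf19a_IR, 1.48 to 14.6 CPM in control_IR, 29.8 to 50.4 CPM in sgRnf19a and 18.7 to 38.4 CPM in control, with Cd3e at 0 throughout. In untreated cells Lyz2 alone of the 7 had the higher mean with the guide, at 26.0 CPM in sgRnf19a and 7.45 CPM in control. Of 3 endothelial markers the sum was 0.792 to 5.66 CPM over all libraries. The part of these marker levels in the results on the guide was not tested.

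The members lie on mouse chromosome 5 (build mm10, coordinates of the deposited table). Oas2 (ENSMUSG00000032690, 120730333 to 120749853), Oas3 (ENSMUSG00000032661, 120753098 to 120777661), Oas1c (ENSMUSG00000001166, 120800194 to 120812514), Oas1g (ENSMUSG00000066861, 120876142 to 120887613) and Oas1a (ENSMUSG00000052776, 120896256 to 120907521) are on the minus strand of 1 cluster. Oas1b (ENSMUSG00000029605, 120812635 to 120824158) is on the plus strand of the same cluster, head to head with Oas1c, with 120 bases between the annotated starts. Oasl2 (ENSMUSG00000029561, 114896936 to 114912234) and Oasl1 (ENSMUSG00000041827, 114923240 to 114937915) form a pair of neighbours on the plus strand farther up the chromosome.

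Reads were 37 bases long, and the Oas1 copies are alike enough for such reads to fit more than 1 of them. Of the 37-base stretches in Oas1a transcripts, 65.1% also occur in another gene, all of these in Oas1g. The shares were 52.0% for Oas1g, 21.8% for Oas1c, 4.86% for Oas1b, 1.48% for Oas3, 0.727% for Oasl2, 0.0739% for Oasl1 and 0% for Oas2. How the authors' counting split such reads is not given in the sources used here, so the separate values of Oas1a and Oas1g are uncertain, and the Oas1 copies are also given as a sum. Antisense genes share 227 exon bases with Oas1c and 38 with Oasl1. They held 20 and 53 counts over all libraries, against 6597 counts for Oas1c and 136312 for Oasl1.

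Promoter windows of 300 bases (250 before the start and 50 after it, RefSeq, build GRCm38.p6) were at hand for 6 of the 8 members, all but Oas1b and Oas2. They were searched on both strands for the core of the interferon-stimulated response element, GAAANNGAAA, the letters that ISGF3 is known to bind, and for the core of the gamma-activated site, TTCNNNGAA. The first was in 4 of the 6 windows, against 3.44% of all 32851 windows, and the second in 1 of the 6, that of Oas1a, against 8.30% of all. Windows of 5 members are shown because they carry this contrast, read 5′ to 3′ along the gene, with the matches to GAAANNGAAA in capitals. The Oas1a window is chr5:120907476-120907775, that of Oas1g chr5:120887564-120887863, that of Oas1c chr5:120812465-120812764 and that of Oas3 chr5:120777610-120777909, all minus strand, and that of Oasl1 is chr5:114922990-114923289, plus strand.
Oas1a: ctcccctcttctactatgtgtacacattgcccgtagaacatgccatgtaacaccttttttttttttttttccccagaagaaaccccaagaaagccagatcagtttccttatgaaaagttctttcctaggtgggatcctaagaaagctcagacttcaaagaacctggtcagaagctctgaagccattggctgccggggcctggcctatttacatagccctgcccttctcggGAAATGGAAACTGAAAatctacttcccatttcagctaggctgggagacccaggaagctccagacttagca
Oas1g: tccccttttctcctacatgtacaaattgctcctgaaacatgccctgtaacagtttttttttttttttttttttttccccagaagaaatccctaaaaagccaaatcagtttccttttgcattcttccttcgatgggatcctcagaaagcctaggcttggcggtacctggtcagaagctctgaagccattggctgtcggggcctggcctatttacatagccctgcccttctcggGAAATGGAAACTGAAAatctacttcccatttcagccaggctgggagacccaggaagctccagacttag
Oas1c: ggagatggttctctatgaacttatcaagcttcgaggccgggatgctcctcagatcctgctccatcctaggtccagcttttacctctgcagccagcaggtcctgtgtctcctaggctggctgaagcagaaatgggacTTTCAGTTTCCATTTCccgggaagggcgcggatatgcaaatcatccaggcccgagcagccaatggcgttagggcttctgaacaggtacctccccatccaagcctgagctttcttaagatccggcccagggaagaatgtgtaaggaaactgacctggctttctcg
Oas3: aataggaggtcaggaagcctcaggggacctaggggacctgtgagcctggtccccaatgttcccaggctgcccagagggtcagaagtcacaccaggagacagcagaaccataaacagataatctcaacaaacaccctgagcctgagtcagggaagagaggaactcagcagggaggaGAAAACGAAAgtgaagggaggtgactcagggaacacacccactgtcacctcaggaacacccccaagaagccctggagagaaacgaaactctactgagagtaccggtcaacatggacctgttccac
Oasl1: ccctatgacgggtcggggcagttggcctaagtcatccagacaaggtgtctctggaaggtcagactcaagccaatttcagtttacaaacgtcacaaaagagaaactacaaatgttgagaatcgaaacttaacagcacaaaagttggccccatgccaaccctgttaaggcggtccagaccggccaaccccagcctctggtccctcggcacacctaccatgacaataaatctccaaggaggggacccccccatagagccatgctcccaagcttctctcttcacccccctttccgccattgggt

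In Oas1a and Oas1g the capitals are a pair of overlapping matches, the first of which begins 20 bases before the start in Oas1a and 18 before it in Oas1g. These windows were identical at 85.3% of aligned positions, compared with 46.7% for Oas1a and Oas1c. In Oas1c the pair of matches, which also overlap, reads on the opposite strand, and the window reaches across the annotated start of Oas1b, so the same letters lie between both genes. The Oas3 window had 1 match, from 75 bases before the start. The windows of Oasl1 and Oasl2 had none, which says only that these letters are not in those 300 bases.

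**Figure D1:**
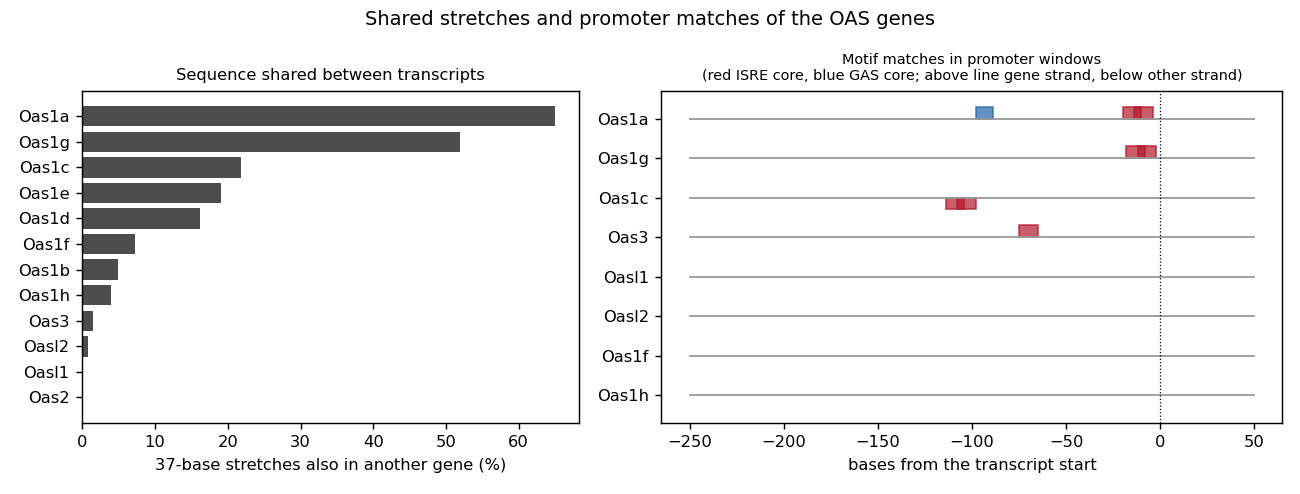
Left, percent of the 37-base stretches in each gene's transcripts that also occur in another gene, with Oas1a at 65.1% and Oas1g at 52.0%. Right, matches to GAAANNGAAA (red) and TTCNNNGAA (blue) by distance in bases from the transcript start, where boxes above a line are on the gene's strand and boxes below it on the other, and where 4 of the 6 member windows hold a red box.

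Counts of members called are set against all 18183 genes that passed the filter on low counts, which all 8 members passed. For the guide in IR-treated cells, 8 of 8 members were called higher, against 21.0% of all genes, and 0 were called lower, against 12.8%. For the guide in untreated cells, 8 of 8 were called higher, against 3.02% of all genes, and 0 lower, against 3.2%. For IR in sgRnf19a cells, 7 of 8 were called higher, against 18.0%, and 0 lower, against 17.6%. For IR in control cells, 7 of 8 were called higher, against 22.2%, and 0 lower, against 25.7%. At an unadjusted p under 0.05, and with DESeq2, 0 were lower in each of these 4 comparisons as well. In each the 3 libraries of one group lay entirely above the 3 of the other for every member called. The share of all genes with libraries so apart was not counted, so this sets no contrast with them. The median log2 fold change of the 8 members was 3.10 for the guide with IR, 2.55 for the guide without IR, 1.72 for IR in sgRnf19a cells and 1.52 for IR in control cells, compared with 0.07, 0.03, -0.02 and -0.02 over all genes. The comparisons share groups, so they are not independent of each other.

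**Figure D2:**
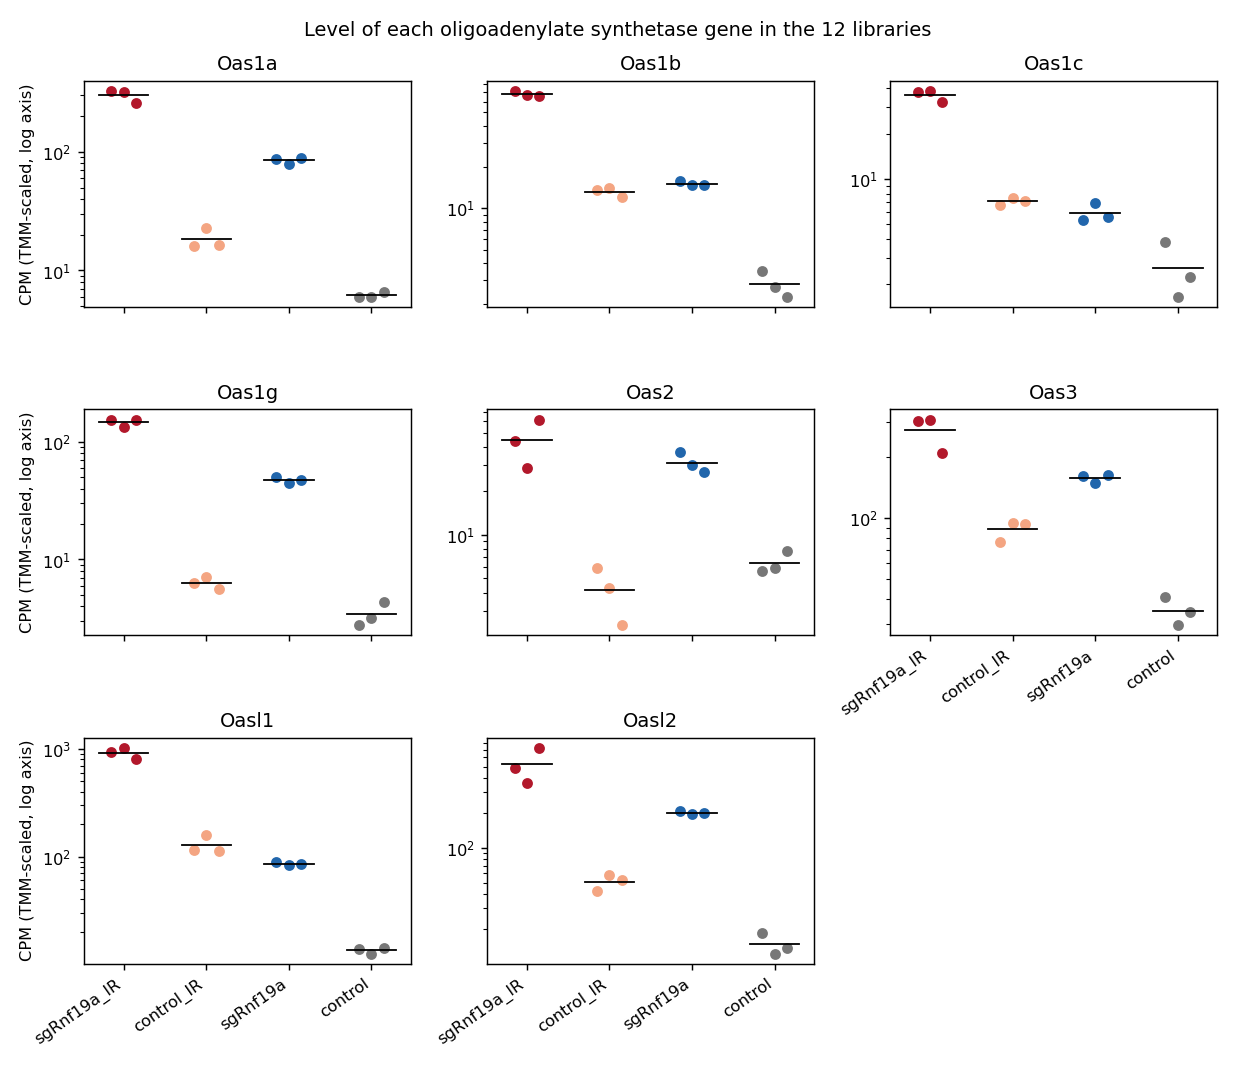
Level of each member in the 12 libraries, in CPM after TMM scaling on a log axis, with sgRnf19a_IR, control_IR, sgRnf19a and control from left to right; points are libraries and lines are group means of 3. In all 8 members the red points of sgRnf19a_IR lie above those of control_IR and the blue points of sgRnf19a above those of control.

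Oas1a, which makes an active synthetase in mice, was at 324, 319.8 and 256 CPM in sgRnf19a_IR, at 16.2, 22.7 and 16.4 CPM in control_IR, at 86.6, 79.7 and 89.3 CPM in sgRnf19a and at 6.005, 5.99 and 6.61 CPM in control. The 4 groups did not overlap, and untreated sgRnf19a cells were above IR-treated control cells. With the guide Oas1a was 16.3-fold higher under IR (log2 change 4.02, SE 0.17, edgeR's quasi-likelihood test, adjusted p = 1.39e-07) and 13.7-fold higher without it (3.78, SE 0.17, adjusted p = 4.42e-07). With IR it rose 3.52-fold in sgRnf19a cells (1.82, SE 0.16, edgeR adjusted p = 2.15e-05) and 2.97-fold in control cells (1.57, SE 0.16, adjusted p = 5.46e-05).

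Oas1g, its near copy, was at 154, 134 and 151 CPM in sgRnf19a_IR, at 6.36, 7.06 and 5.66 CPM in control_IR, at 50.04, 44.2 and 47.7 CPM in sgRnf19a and at 2.77, 3.17 and 4.37 CPM in control. Again no group overlapped another. Its excess with the guide under IR, 23.0-fold (log2 change 4.53, SE 0.19, edgeR adjusted p = 1.32e-07), was the largest among the members. Without IR it was 13.7-fold (3.78, SE 0.18, adjusted p = 4.93e-07), which differed from the values of Oas1a and Oasl2 by less than its SE. The rise with IR was 3.10-fold in sgRnf19a cells (1.63, SE 0.17, edgeR adjusted p = 6.51e-05) and 1.85-fold in control cells (0.89, SE 0.17, adjusted p = 0.00111). The rise in control cells was not called on the authors' FPKM scale, at 0.39 for log2(FPKM + 0.1) with limma's adjusted p = 0.0935.

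Oas1b is the gene of flavivirus resistance in mice, and most laboratory strains carry a premature stop codon in it; RefSeq lists the C57BL/6J copy as a transcribed pseudogene. It was at 71.2, 66.8 and 65.3 CPM in sgRnf19a_IR, at 13.6, 14.0 and 12.1 CPM in control_IR, at 15.9, 14.8 and 14.8 CPM in sgRnf19a and at 3.47, 2.68 and 2.26 CPM in control. The groups sgRnf19a and control_IR lay close to each other, and every other pair of groups was far apart. Its changes were nearly even in all 4 comparisons: 5.13-fold for the guide under IR and 5.40-fold without it, and 4.47-fold for IR in sgRnf19a cells and 4.71-fold in control cells. The log2 fold changes were 2.36, 2.43, 2.16 and 2.24, each with an SE of 0.16 and edgeR adjusted p-values of 2.50e-06, 4.66e-06, 5.42e-06 and 8.33e-06.

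Oas1c, whose product lacks synthetase activity in mice, was at 37.7, 38.2 and 32.5 CPM in sgRnf19a_IR, at 6.67, 7.51 and 7.14 CPM in control_IR, at 5.34, 6.91 and 5.62 CPM in sgRnf19a and at 3.83, 1.65 and 2.23 CPM in control. The sgRnf19a libraries overlapped those of control_IR, and control replicate 1 was the highest of its group. With the guide it was 5.08-fold higher under IR (log2 change 2.34, SE 0.26, edgeR adjusted p = 0.000105) and 2.32-fold higher without it (1.21, SE 0.26, adjusted p = 0.0142), the smallest excess of the 8 without IR. That call was lost without sgRnf19a replicate 2 (adjusted p = 0.0664) or without control replicate 3 (adjusted p = 0.0732). With IR it rose 6.06-fold in sgRnf19a cells (2.60, SE 0.26, edgeR adjusted p = 6.01e-05) and 2.77-fold in control cells (1.47, SE 0.26, adjusted p = 0.000635).

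Dividing reads shared among the 8 Oas1 copies in another way would leave their sum as it is, though dropping such reads, or sharing with genes outside the cluster, would not. The sum was 589, 561 and 509 CPM in sgRnf19a_IR, 43.0, 51.3 and 41.3 CPM in control_IR, 158, 146 and 158 CPM in sgRnf19a and 16.1, 13.5 and 15.5 CPM in control. No group overlapped another. The sum was 12.2-fold higher with the guide under IR (log2 change 3.61, SE 0.14, edgeR adjusted p = 8.77e-08) and 10.2-fold higher without it (3.36, SE 0.14, adjusted p = 1.87e-07). It rose with IR 3.59-fold in sgRnf19a cells (1.84, SE 0.13, edgeR adjusted p = 3.85e-06) and 3.01-fold in control cells (1.59, SE 0.13, adjusted p = 2.17e-05).

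The other 4 copies were barely counted. Oas1d, known in mice from oocytes, summed to 82 counts in sgRnf19a_IR, 0 in control_IR, 4 in sgRnf19a and 0 in control. Oas1h summed to 101, 0, 50 and 4 counts in the same groups, and Oas1e to 76, 8, 33 and 0. Since 1 read pair was worth about 4 counts, these are small numbers of molecules. Against a floor of 12 counts over a group, which covers counting error only, Oas1d was at least 6.25-fold and Oas1h at least 7.70-fold higher in sgRnf19a_IR than in control_IR. Oas1f had 0 counts in every library.

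Oas2, a larger synthetase built from repeated units, was at 44.0, 28.5 and 61.7 CPM in sgRnf19a_IR, at 5.86, 4.33 and 2.39 CPM in control_IR, at 36.7, 30.3 and 27.0 CPM in sgRnf19a and at 5.60, 5.95 and 7.68 CPM in control. Libraries with the guide lay far above those without it, while IR-treated and untreated libraries overlapped in both genotypes. The guide's excess was 10.7-fold under IR (log2 change 3.42, SE 0.35, edgeR adjusted p = 5.60e-05) and 4.88-fold without it (2.29, SE 0.33, adjusted p = 0.00110). The difference with IR was 0.52 on the log2 scale in sgRnf19a cells (SE 0.31, edgeR adjusted p = 0.230) and -0.62 in control cells (SE 0.33, adjusted p = 0.141). On the log2(FPKM + 0.1) scale the value with IR in control cells was -1.07 (limma's adjusted p = 0.0138), so that Oas2 was the single member called lower with IR there.

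Oas3, the largest of the synthetases, was at 303, 307 and 211 CPM in sgRnf19a_IR, at 76.8, 94.9 and 93.5 CPM in control_IR, at 161, 150.2 and 164 CPM in sgRnf19a and at 40.9, 29.7 and 34.6 CPM in control. The groups did not overlap, and sgRnf19a_IR replicate 4 was well below the others of its group. It was the synthetase gene with the smallest excess under the guide in IR-treated cells, 3.09-fold (log2 change 1.63, SE 0.18, edgeR adjusted p = 7.51e-05). Without IR the excess was 4.52-fold (2.18, SE 0.18, adjusted p = 1.77e-05). IR raised it 1.73-fold in sgRnf19a cells (0.79, SE 0.17, edgeR adjusted p = 0.00421) and 2.52-fold in control cells (1.33, SE 0.17, adjusted p = 0.000127). The rise in sgRnf19a cells was not called on the log2(FPKM + 1) scale (0.30, limma's adjusted p = 0.151).

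Oasl1 encodes an OAS-like protein without synthetase activity, known in mice for blocking translation of the Irf7 mRNA. It was at 943, 1023 and 814 CPM in sgRnf19a_IR, at 115, 159.8 and 112 CPM in control_IR, at 88.6, 83.9 and 85.4 CPM in sgRnf19a and at 13.8, 12.6 and 14.2 CPM in control. The groups did not overlap, and unlike for Oas1a the IR-treated control cells were above untreated sgRnf19a cells. It had the largest rise with IR of the 8, 10.8-fold in sgRnf19a cells (log2 change 3.43, SE 0.17, edgeR adjusted p = 3.49e-07) and 9.54-fold in control cells (3.25, SE 0.16, adjusted p = 1.41e-06). With the guide it was 7.18-fold higher under IR (2.84, SE 0.16, edgeR adjusted p = 9.38e-07) and 6.36-fold higher without it (2.67, SE 0.16, adjusted p = 2.56e-06).

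Oasl2, an OAS-like protein with ubiquitin-like domains that keeps synthetase activity in mice, was at 483, 363 and 722 CPM in sgRnf19a_IR, at 42.3, 57.8 and 52.7 CPM in control_IR, at 207, 196 and 199 CPM in sgRnf19a and at 18.3, 12.3 and 13.8 CPM in control. The groups did not overlap, and the sgRnf19a libraries were well above those of control_IR. With the guide it was 10.3-fold higher under IR (log2 change 3.36, SE 0.25, edgeR adjusted p = 5.67e-06) and 13.6-fold higher without it (3.77, SE 0.26, adjusted p = 5.34e-06). It rose with IR 2.60-fold in sgRnf19a cells (1.38, SE 0.24, edgeR adjusted p = 0.000980) and 3.45-fold in control cells (1.79, SE 0.24, adjusted p = 0.000146).

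In sgRnf19a_IR, replicate 4 was the highest of its group for Oas2 and Oasl2 and the lowest for Oas1a, Oas1b, Oas1c, Oas3 and Oasl1. It was also the library with the highest level of long transcripts among the IR-treated ones. The longest annotated transcripts measure 3961 bases for Oas2, 3123 for Oasl2, 4720 for Oas3 and 2181 for Oasl1, and 1837 to 2291 for the Oas1 members. Without this library the same numbers of members were called as with it, 8 for the guide with IR and 7 for IR in sgRnf19a cells.

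**Figure D3:**
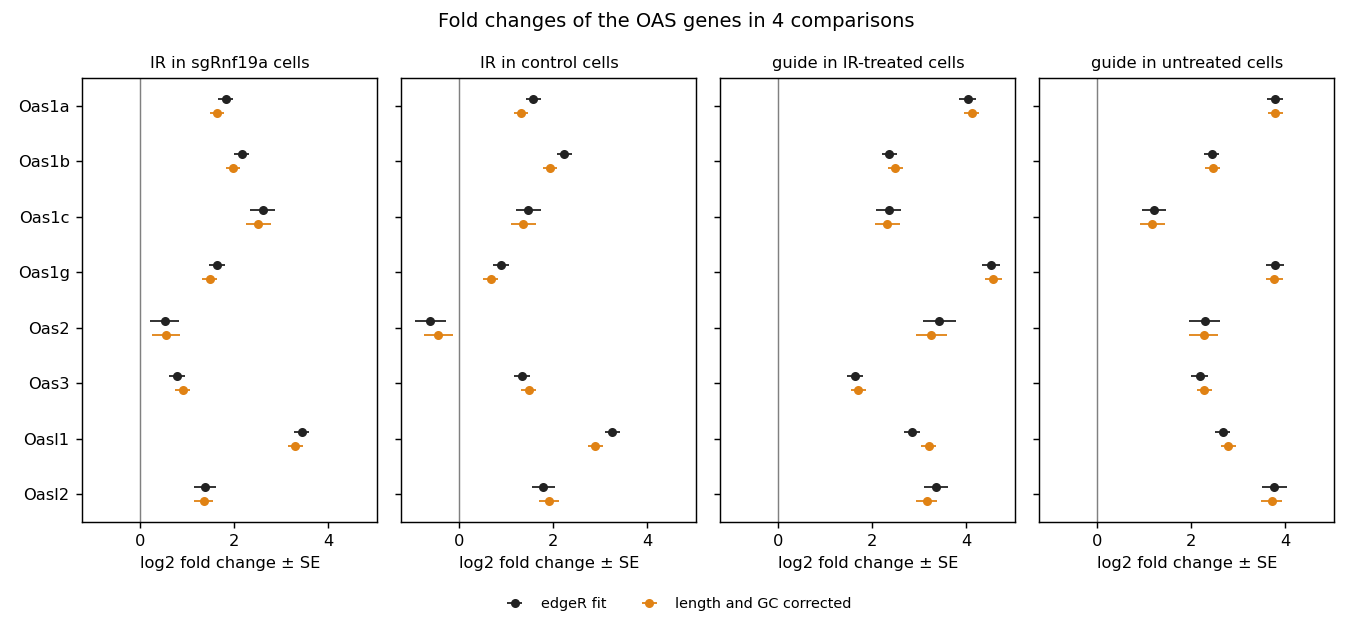
Log2 fold changes (points) with their SE (bars) for the 8 members in 4 comparisons, black from edgeR's fit and orange after a correction of each library for transcript length and GC content. The orange points keep the side of 0 of the black ones for the members, though some moved by more than their SE. Oasl1 went from 3.25 to 2.89 for IR in control cells and from 2.84 to 3.20 for the guide with IR. For the guide with IR all 8 black points lie to the right of 0.

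Levels of different genes can be compared per length, in the FPKM that the authors deposited. The places of Oas1a and Oas1g depend on how their shared reads were split, which is not known. The 8 members summed to 606 ± 73.8 FPKM in sgRnf19a_IR, 74.4 ± 13.5 in control_IR, 186 ± 9.70 in sgRnf19a and 23.6 ± 2.07 in control (SD, n = 3 each). In sgRnf19a_IR the order was Oasl1 at 283 ± 32.3 FPKM, Oas1a at 127 ± 21.4, Oasl2 at 66.5 ± 26.5, Oas1g at 50.4 ± 9.16, Oas3 at 30.9 ± 6.71, Oas1b at 27.3 ± 4.05, Oas1c at 12.0 ± 1.57 and Oas2 at 8.18 ± 3.47. The libraries of Oasl2 and Oas1g overlapped, as did those of Oas3 and Oas1b and of Oas1c and Oas2. In control_IR, Oasl1 led at 39.6 ± 8.93 FPKM, far above Oas3 at 10.03 ± 1.58, and Oas2 was last at 0.739 ± 0.278. In untreated sgRnf19a cells Oas1a led at 49.6 ± 3.27 FPKM, above Oasl1 at 36.2 ± 1.59 and Oasl2 at 34.6 ± 1.55, which overlapped, and Oas1c was last at 2.71 ± 0.352. In untreated control cells Oasl1 at 5.81 ± 0.342 FPKM and Oas3 at 5.56 ± 0.811 overlapped at the top, and Oas1g, Oas2, Oas1b and Oas1c overlapped at the bottom, between 1.64 ± 0.410 and 1.19 ± 0.504.

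The make-up of the family in deposited FPKM differed with both IR and guide. The libraries also differed in long against short transcripts with both, and these shares carry no correction for that. The longest transcripts measure 2181 bases for Oasl1 and 4720 for Oas3. The part of this in the shares was not tested. Oasl1 gave 46.9 ± 3.52% of the summed FPKM in sgRnf19a_IR and 53.0 ± 2.63% in control_IR, and 19.5 ± 0.320% in sgRnf19a and 24.6 ± 1.26% in control. Its share in each IR-treated library, 43.6 to 55.8%, was above that in each untreated one, 19.2 to 25.6%. Oas1a gave 21.0 ± 1.73% in sgRnf19a_IR and 10.5 ± 0.444% in control_IR, and 26.7 ± 0.940% in sgRnf19a and 15.7 ± 1.54% in control, higher in every library with the guide than in every library without it. Oas3 ran the other way with the guide, with 5.09 ± 0.806% in sgRnf19a_IR and 13.6 ± 1.73% in control_IR, and 13.2 ± 0.327% in sgRnf19a and 23.4 ± 1.61% in control. The share of Oas1a also depends on how reads shared with Oas1g were split. These shares have no test here, and 3 libraries against 3 could not have gone below p = 0.10 in an exact permutation test.

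**Figure D4:**
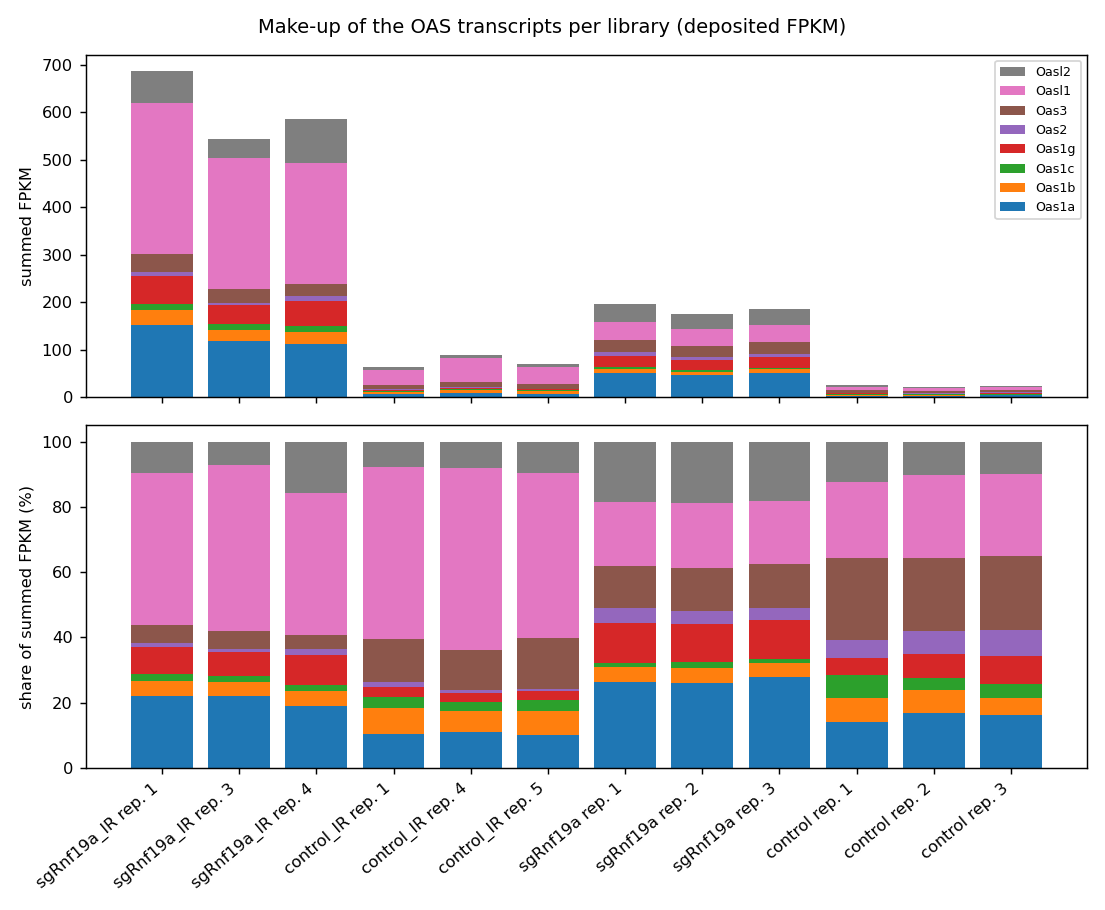
Deposited FPKM of the 8 members stacked per library (top) and as a percent of their sum (bottom), with the libraries of sgRnf19a_IR, control_IR, sgRnf19a and control from left to right. Oasl1 (pink) takes 43.6 to 55.8% in the IR-treated libraries and 19.2 to 25.6% in the untreated ones.

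Whether IR acted differently with the guide was tested as the difference between the IR responses, sgRnf19a cells minus control cells. Of the 8 members 0 were called higher, against 0.544% of all genes, and 0 lower, against 0.137%. At an unadjusted p under 0.05 in edgeR, 3 were higher (Oas1c, Oas1g and Oas2) and 1 lower (Oas3). The log2 difference was 1.13 for Oas2 (95% interval 0.14 to 2.13, edgeR adjusted p = 0.186), 1.13 for Oas1c (0.35 to 1.91, adjusted p = 0.121), 0.75 for Oas1g (0.23 to 1.26, adjusted p = 0.121) and -0.55 for Oas3 (-1.08 to -0.02, adjusted p = 0.222). For Oas1a it was 0.25 (-0.23 to 0.72), for Oasl1 0.18 (-0.29 to 0.64), for Oas1b -0.08 (-0.55 to 0.40) and for Oasl2 -0.41 (-1.12 to 0.31). DESeq2 called Oas1c (adjusted p = 0.0400) and Oas1g (adjusted p = 0.0399) higher, and limma on log2(FPKM + 1) called Oas1c (adjusted p = 0.0375). Without sgRnf19a_IR replicate 3, edgeR called Oas1g (adjusted p = 0.0498) and Oas2 (adjusted p = 0.0441).

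The members did not share a single profile. Likeness was measured as the root mean square difference between centred log2 CPM over the 12 libraries, where a smaller value means more alike; it is a description with no test, and the points share the 4 groups. Oas1a was most like Oas1g (0.316) and then Oasl2 (0.410), and Oas1b most like Oas1c (0.467), its neighbour across the shared start region. Oas1a and Oas1g are also the copies that share the most 37-base stretches. The pair least alike was Oas2 and Oasl1 (1.79), and these were also farthest from the mean profile of the 8, at 0.963 for Oas2 and 0.860 for Oasl1. Oas1b (0.415) and Oasl2 (0.429) were nearest to it.

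Among 14108 other genes, whose median distance from the mean profile of the family was 1.80, the 8 nearest were H2-Q4 (0.258), Psmb9 (0.304), Dhx58 (0.308), Irf7 (0.316), Psmb8 (0.333), Tap1 (0.336), Lgals9 (0.363) and Apol9b (0.371). H2-Q4, a class I histocompatibility gene, averaged 159 CPM in sgRnf19a_IR and 20.2 CPM in control_IR, and 58.4 CPM in sgRnf19a and 7.04 CPM in control. Psmb8 and Psmb9 encode subunits of the immunoproteasome and Tap1 a subunit of the peptide transporter that serves class I molecules. Dhx58 encodes LGP2, a double-stranded RNA binding helicase, and Irf7 a transcription factor of the interferon response. All 8 were nearer to the family's mean profile than any member was. They were picked for nearness from 14108 genes, while the members were taken by name, so this order says little about the family.

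**Figure D5:**
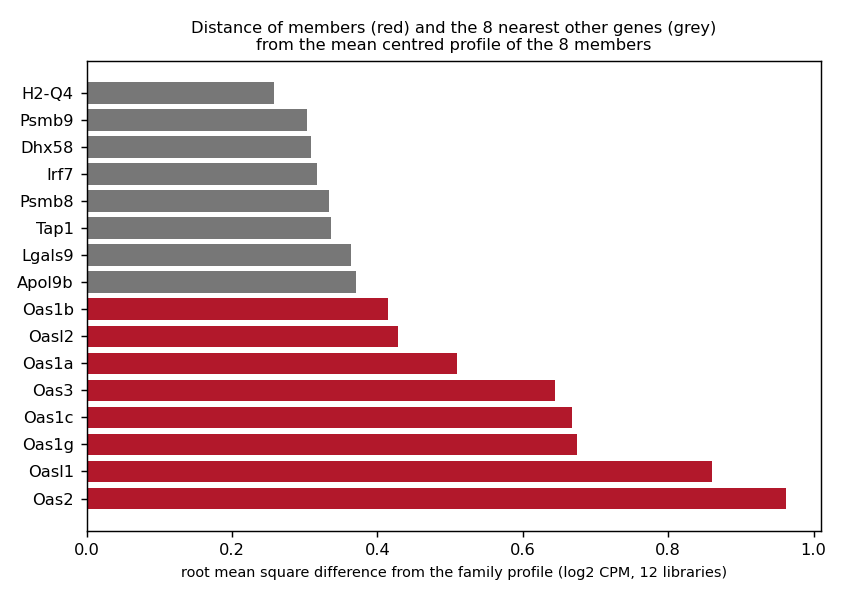
Root mean square difference, in log2 CPM over 12 libraries, between the mean centred profile of the 8 members and each member (red) or the 8 nearest other genes (grey), nearest at the top. H2-Q4 is nearest at 0.258 and Oas2 farthest at 0.963.

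A list of 19 genes of the pathway was read in the same fit, and all 19 passed the filter. With the guide 14 were called higher in IR-treated cells and 9 in untreated cells, and 0 lower in either, also at an unadjusted p under 0.05. With IR 11 were higher and 2 lower in sgRnf19a cells, and 11 higher and 5 lower in control cells. The shares of all genes are those given for the members. Libraries with the guide also held more long transcripts relative to short ones, and the part of this in single values was not tested. Abce1, which recycles ribosomes, was at 196, 141 and 553 CPM in sgRnf19a_IR, at 44.8, 70.2 and 51.0 CPM in control_IR, and between 348 and 421 CPM in the 6 untreated libraries. With IR it fell 6.49-fold in control cells (log2 change -2.70, SE 0.41, edgeR adjusted p = 0.000267), and its -0.40 in sgRnf19a cells did not pass (adjusted p = 0.457). With the guide it was 5.37-fold higher under IR (2.42, SE 0.41, edgeR adjusted p = 0.00154) and did not pass without it (0.13, SE 0.39, adjusted p = 0.912). Without sgRnf19a_IR replicate 4 the excess under IR was 3.05-fold (edgeR adjusted p = 6.84e-05), and Abce1 was called lower with IR in sgRnf19a cells too (-1.23, adjusted p = 0.000183). The difference between its IR responses, sgRnf19a cells minus control cells, was 2.29 (edgeR adjusted p = 0.0799), and it was called without sgRnf19a_IR replicate 3 (2.63, adjusted p = 0.00852) or 4 (1.48, adjusted p = 0.0115). Pde12, a phosphodiesterase that breaks the oligoadenylates down, rose 1.41-fold with IR in sgRnf19a cells (edgeR adjusted p = 0.0106) and 1.39-fold in control cells (adjusted p = 0.00894), and its values for the guide, 0.15 with IR and 0.13 without it on the log2 scale, did not pass. Its rise was no longer called in sgRnf19a cells without sgRnf19a_IR replicate 1 (edgeR adjusted p = 0.0554) or in control cells without control_IR replicate 5 (adjusted p = 0.0638).

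The other proteins that bind double-stranded RNA were Adar, which edits it, the kinase Eif2ak2 (PKR) and the sensors Ifih1 (MDA5), Ddx58 (RIG-I) and Dhx58. With the guide under IR all 5 were called higher, against 21.0% of all genes. The excess ran from 3.55-fold for Adar (log2 change 1.83, SE 0.14, edgeR adjusted p = 5.56e-06) to 21.8-fold for Ifih1 (4.44, SE 0.53, adjusted p = 0.000152). Ifih1 was at 178, 86.8 and 452 CPM in sgRnf19a_IR and at 8.59, 15.7 and 8.64 CPM in control_IR, and the 452 was replicate 4. Without that library the excess was 12.1-fold for Ifih1, 6.90-fold for Eif2ak2, against 15.4-fold with it, and 5.17-fold for Ddx58, against 8.12-fold with it, each still called. Without IR 4 of the 5 were called higher, against 3.02% of all genes. Eif2ak2 had 1.80 without IR (SE 0.55, edgeR adjusted p = 0.0882), which passed without sgRnf19a_IR replicate 3 (adjusted p = 0.00863) or 4 (adjusted p = 0.0014). There the call of Ifih1 was lost without control replicate 2 or 3 (edgeR adjusted p = 0.0644 and 0.0738), and that of Ddx58 without sgRnf19a replicate 2 or any 1 of the control libraries (adjusted p = 0.0524 to 0.0889). With IR in sgRnf19a cells Adar, Dhx58 and Ifih1 rose, Ifih1 by 3.35-fold (1.74, SE 0.47, edgeR adjusted p = 0.0125) and by 1.85-fold without replicate 4 (adjusted p = 0.0265). Ddx58 had 0.36 and Eif2ak2 -0.02 there, and neither passed, though without replicate 4 Eif2ak2 was called lower (-1.19, adjusted p = 0.00988). With IR in control cells Adar and Dhx58 rose, as most members did, while Eif2ak2 fell 4.47-fold (-2.16, SE 0.56, edgeR adjusted p = 0.00741). Ifih1 and Ddx58 did not pass there, at -0.47 and -0.92, and Ddx58 was called lower without sgRnf19a_IR replicate 3 or 4 or control_IR replicate 4 (edgeR adjusted p = 0.0152, 0.00423 and 0.037). The difference between the IR responses, sgRnf19a cells minus control cells, was not called for any of the 5, at 2.22 for Ifih1 (edgeR adjusted p = 0.109), 2.14 for Eif2ak2 (adjusted p = 0.154) and 1.27 for Ddx58 (adjusted p = 0.199), and was called for these 3 without sgRnf19a_IR replicate 3 (adjusted p = 0.0106, 0.0123 and 0.0255).

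Of the interferon signal that switches the family on, Ifnb1, the gene of interferon beta, was at 23.9, 28.4 and 22.4 CPM in sgRnf19a_IR, at 16.3, 23.2 and 23.8 CPM in control_IR, and between 0.143 and 0.400 CPM in the 6 untreated libraries. It rose 98.4-fold with IR in sgRnf19a cells (log2 change 6.62, SE 0.35, edgeR adjusted p = 6.05e-07) and 108-fold in control cells (6.75, SE 0.36, adjusted p = 1.68e-06). The untreated levels of Ifnb1 stand on few read pairs, so both folds and its guide value without IR are imprecise. The guide's value was 0.24 with IR (SE 0.26, edgeR adjusted p = 0.534) and 0.37 without it (SE 0.36, adjusted p = 0.694), so Ifnb1 did not pass where all 8 members did. The receptor genes Ifnar1 and Ifnar2 and the kinase gene Tyk2 did not pass for the guide in either state, and Jak1 was higher under IR, with overlapping libraries (1.12, SE 0.31, edgeR adjusted p = 0.0159). Jak1 no longer passed there with control_IR replicate 1 left out (adjusted p = 0.0722). Tyk2 passed without IR when sgRnf19a_IR replicate 4 was left out (0.55, adjusted p = 0.0055). Stat2 and Irf9, which belong to ISGF3, were called higher with the guide. Stat2 was 4.28-fold higher with IR and 4.23-fold without it, and Irf9 1.56-fold and 3.29-fold. The call of Irf9 under IR was lost without control_IR replicate 5 (edgeR adjusted p = 0.0521). Irf7 was 5.47-fold higher with the guide under IR and 6.71-fold without it, and Irf1, an activator that needs no ISGF3, 2.48-fold under IR (edgeR adjusted p = 3.83e-05) while its 0.21 without IR did not pass (adjusted p = 0.460). Usp18, which switches the interferon receptor off again, was 8.21-fold higher with the guide under IR and 3.67-fold without it.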

How the data were processed

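Per the labels' protocols, RNA from cell pellets was depleted of ribosomal RNA, made into strand-marked libraries with 12 PCR cycles and read as pairs of 37 bases; the submitters' processing notes name Bowtie2, HTSeq, DESeq2, mm10 and GRCm39, with no versions or roles. The authors deposited counts per gene, not normalized; since the value 4 occurred 5958 times in genes with transcripts over 2 kb, against 989 for 3 and 1000 for 5, 1 read pair is worth about 4 counts and they were treated as estimated counts, whole as deposited. The authors also deposited FPKM, scaled to transcript length and library size. Copies of the counts in 12 more columns were left aside. Untreated columns matched samples by guide and number; the other 6, by elimination, are the IR-treated groups, and carry their column number, which is not that of the labels. All libraries differed by more than counting noise.

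In edgeR 4.0.16, genes passing filterByExpr (minimum count 10, total 15) were scaled by TMM and fitted over 12 libraries with 4 group means (robust glmQLFit, 2-sided glmQLFTest, R 4.3.3). p-values were adjusted after Benjamini-Hochberg over all 18183 genes and called under 0.05; the SE is the log2 fold change over the square root of F. Alternatives were DESeq2 1.42.0, other scaling and filters, limma 3.58.1 on log2(FPKM + 1) and log2(FPKM + 0.1), which understates low genes, a length and GC correction (splines, 5 degrees of freedom), and leaving out each library. Leaving out ribosomal RNA genes and a block on the column numbers were added after seeing the data. The count tests were tested on simulated data. The members, the pathway list, the markers and the rule for the named genes (members, Rnf19a, the other Oas1 copies, the pathway list and the 8 genes nearest to the family profile, predicted genes left out) were chosen with earlier results of these data known; some genes of that rule are not reported here. Likeness used log2 CPM with a prior count of 2. Shared stretches came from GENCODE M21 transcripts, promoters from RefSeq. Figures were drawn with matplotlib 3.10.9.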

Additional observations from a re-analysis of the deposited data

Results flagged for a closer look

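Among the genes described, Irf1 and Usp18 were singled out because their IR response differed between the genotypes in a test of the difference itself. For Irf1 the log2 difference, sgRnf19a cells minus control cells, was 1.10 (SE 0.18, edgeR adjusted p = 0.0255), with a rise of 5.25-fold with IR in sgRnf19a cells and of 2.45-fold in control cells. For Usp18 it was 1.16 (SE 0.21, edgeR adjusted p = 0.0341), with a rise of 16.5-fold in sgRnf19a cells and of 7.35-fold in control cells. All 3 sgRnf19a_IR libraries were above all 3 control_IR libraries for both genes. The sgRnf19a libraries were likewise above those of control, so this separation does not bear on the difference between IR responses. Neither gene's difference was called without sgRnf19a_IR replicate 1, without control_IR replicate 1 or 5, or without any 1 of the 6 untreated libraries. No OAS member was among them.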

How the results depend on the processing

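Over all settings run, 6 or 7 members were called higher for IR in each genotype, 8 for the guide with IR and 7 or 8 for the guide without it. Oas2 was called lower for IR in control cells with log2(FPKM + 0.1), a count of 1 against 0. For the difference between IR responses, where edgeR called 0 members higher, DESeq2 called 2 and limma on log2(FPKM + 1) called 1, and leaving out a library gave 0 to 2. Of single members, the difference of Oas1b changed sign to 0.29 on log2(FPKM + 1), with and without a filter, to 0.038 after the length and GC correction and to 0.057 without control replicate 3, and ran from -0.26 to 0.057 over left-out libraries, never past the threshold; IR on Oas2 in sgRnf19a cells was -0.0032 on log2(FPKM + 0.1). The cause of these changes was not tested. Upper-quartile factors moved the median of all genes for IR in control cells to 0.19, and log2(FPKM + 1) to -0.34, from -0.02. Of the 19 pathway genes, those higher with IR in control cells numbered 7, 7 and 6 on log2(FPKM + 1), log2(FPKM + 0.1) and log2(FPKM + 1) without a filter, and 6 in each of the 3 in sgRnf19a cells. Those lower with IR in sgRnf19a cells numbered 1 with only the groups compared, 4 on log2(FPKM + 1) and 4 on log2(FPKM + 0.1), and 1 to 4 over left-out libraries. After the length and GC correction 1 was lower with the guide in IR-treated cells. For the difference, the higher ones numbered 6 with DESeq2, 1 with upper-quartile factors, 0 on log2(FPKM + 0.1), 0 on log2(FPKM + 1) without a filter and 0 to 8 over left-out libraries, where 8 came without sgRnf19a_IR replicate 3. The lower ones numbered 1 with DESeq2, 1 after the length and GC correction and 0 to 1 over left-out libraries. Deviations of same-numbered untreated libraries correlated at -0.157, -0.0096 and 0.033, so the numbers were not taken as pairs; with the replicate block 8 members stayed called higher for the guide without IR, and with a block on the column numbers 8 for the guide with IR. Replacing the Oas1 copies by their sum gives no count of members. Depth limits the 4 low Oas1 copies, and Ifnb1 in the untreated libraries.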
